A study of Mus musculus with 2 samples.

Results

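The miRNA genes Mir7-1, Mir7-2, Mir7b and Mir203 were examined in the stomach of the mouse embryo. They were chosen by name, as miRNAs described as acting on Barx1 in stomach mesenchyme, and are 4 of the 1973 miRNA genes in the deposited count tables. The series holds 1 group of 2 libraries, replicate 1 and replicate 2, of small RNA below 30 nt from B6NCrl embryos aged 14.5 days, with no treatment or altered genotype. Per the labels each library came from a single stomach taken on its own collection day. The same labels also give the sex as pooled male and female, so whether more than 1 embryo entered a library is not known. Collection day and replicate follow the same split and cannot be told apart. There is no second condition, and the measurements below describe levels, their spread and the sequences behind them.

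Barx1 is a homeobox transcription factor of the stomach mesenchyme that is known to allow gastric epithelium to form by limiting Wnt signalling, in part through secreted Frizzled-related proteins. A miRNA pairs through its seed, bases 2 to 8 of the mature strand, with sites in mRNAs, mostly in the 3′ UTR, and lowers the stability and translation of those mRNAs. In mouse stomach, miR-7a and miR-203 were described as repressors of Barx1 in mesenchymal cells. miR-7 is otherwise known from endocrine and neural cells such as those of the pancreatic islets, and miR-203 from the differentiating layers of stratified epithelia, where it acts on the stem cell factor p63. The tables hold miRNA genes and no mRNA, so the level of Barx1 and any effect on it could not be measured.

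The mature strands show which genes share a seed and which share a whole strand. Sequences are those of RefSeq on GRCm38.p6, given 5′ to 3′ with the seed in capitals, and all 4 genes had an entry.
miR-7a-5p, made by both Mir7-1 and Mir7-2: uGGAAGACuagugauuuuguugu
miR-7b-5p, made by Mir7b: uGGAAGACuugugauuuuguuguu
miR-203-3p, made by Mir203: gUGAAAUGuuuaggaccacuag
miR-7a-1-3p, of Mir7-1: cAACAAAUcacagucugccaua
miR-7a-2-3p, of Mir7-2: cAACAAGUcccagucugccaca
miR-7b-3p, of Mir7b: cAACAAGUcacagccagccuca
miR-203-5p, of Mir203: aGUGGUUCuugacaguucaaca

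The 5p strands of the 3 Mir7 genes carried 1 seed, which no other gene of the RefSeq miRNA table held. The seed of miR-203-3p was likewise found for no other gene. Over the 23 positions that they share, counted from the 5′ end of miR-7a-5p, miR-7a-5p and miR-7b-5p differed at 1 base, A10U, which lies outside the seed. The 3p strands were less alike. miR-7a-1-3p and miR-7a-2-3p differed at 3 of 22 bases, and 1 of these, A7G, falls in the seed, so that miR-7a-2-3p and miR-7b-3p shared a 3p seed that miR-7a-1-3p lacked.

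The precursors show how far reads from these genes can be told apart. In the next sequences capitals mark both mature strands.
Mir7-1: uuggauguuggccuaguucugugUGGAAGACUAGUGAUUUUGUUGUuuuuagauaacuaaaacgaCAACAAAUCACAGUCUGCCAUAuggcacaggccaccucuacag
Mir7-2: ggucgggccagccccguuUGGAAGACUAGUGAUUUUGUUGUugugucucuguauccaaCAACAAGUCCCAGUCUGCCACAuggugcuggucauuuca
Mir7b: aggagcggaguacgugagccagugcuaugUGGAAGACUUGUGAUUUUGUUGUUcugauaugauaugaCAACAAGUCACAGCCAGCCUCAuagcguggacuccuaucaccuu
Mir203: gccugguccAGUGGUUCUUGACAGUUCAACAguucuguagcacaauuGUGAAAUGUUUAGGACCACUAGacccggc

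The Mir7-1 and Mir7-2 precursors had a run of 24 bases in common, which spans the whole of miR-7a-5p and 1 base beyond it. A read that lies within that run matches both loci. Reads that map to several places stand on a line of their own in the deposited tables, 27.8% of all reads in replicate 1 and 27.4% in replicate 2, and enter no gene. The counts of Mir7-1 and Mir7-2 therefore leave out miR-7a-5p reads that end within the shared run, in a number that the tables do not give. The longest run shared by Mir7b with either of the other Mir7 genes was 14 bases, and neither Mir7b nor Mir203 shared 18 or more bases in the same orientation with any other annotated precursor. The counts are per gene, so the 5p and 3p strands of a precursor could not be separated.

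The 4 genes lie on 4 chromosomes of GRCm38 (mm10). Mir7-1 (ENSMUSG00000065434.1, chromosome 13, 58392779 to 58392886, minus strand) lies inside Hnrnpk on the same strand and overlaps no annotated exon of it, which makes it intronic. Hnrnpk encodes an abundant RNA-binding protein. Mir7-2 (ENSMUSG00000065609.1, chromosome 7, 78888277 to 78888373, plus strand) is intergenic in GENCODE M21, and the nearest gene within 10 kb is Aen on the same strand, 7480 bases away. Mir7b (ENSMUSG00000065491.1, chromosome 17, 56242988 to 56243098, plus strand) follows the lincRNA AC026385.1 on the same strand after 182 bases, and the processed pseudogene AC026385.2 lies 3626 bases before it. Mir203 (ENSMUSG00000065574.1, chromosome 12, 112130880 to 112130955, plus strand) lies 3320 bases beyond the end of Aspg, on the same strand. Around Mir7-1, the genes 2210016F16Rik and Rmi1 also come within 10 kb. None of the neighbours is a miRNA gene of the GENCODE annotation.

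Levels are counts per 1000000 gene counts (CPM), from gene totals of 5004548 counts in replicate 1 and 4679914 in replicate 2. The smooth muscle and mesenchyme list (6 of 6 genes detected) had a sum of 178775 CPM (replicate 1) and 162376 CPM (replicate 2), and the epithelial list (5 of 5) one of 41439 and 41482 CPM. Mir143 made up most of the smooth muscle and mesenchyme sum, at 161255 and 143726 CPM, while Mir199a-1 had 7.39 and 10.3 CPM. Reads that match both Mir199a-1 and Mir199a-2 are lost to multiple mapping, so this low count does not show a low level. The endothelial miRNA Mir126a reached 21613 and 19164 CPM. Striated muscle genes (3 of 7 counted genes detected) summed to 115 and 98.9 CPM, most of it from Mir208b at 95.1 and 86.3 CPM. Mir133a-1 and Mir133a-2 had 0 counts, but both make miR-133a, whose reads can be lost to multiple mapping, so this does not show absence. Erythroid genes (2 of 2) summed to 147 and 213 CPM, leukocyte genes (3 of 3) to 560 and 598 CPM, and liver Mir122 to 56.7 and 65.8 CPM. Pancreatic acinar genes (1 of 3 detected) summed to 6.59 and 5.98 CPM.

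Mir203 had the highest counted level of the 4 genes. It had 36678 counts in replicate 1 and 29909 in replicate 2, which is 7329 CPM (95% Poisson interval 7254 to 7404) and 6391 CPM (6319 to 6464), with a mean of 6860 ± 663 CPM (SD, n = 2). At that level it ranked 30 among the 361 detected genes, those with at least 10 counts in each library, and 91.7% of those genes lay below it. Genes whose mature strand is made at several loci can lose reads to multiple mapping. The ranks here and below, and the median of the detected genes, are therefore those of counted reads. The detected miRNAs nearest to it in level over the 2 libraries, by distance of log2(CPM + 1), were Mir106b at 6419 ± 434 CPM and the epithelial Mir200b at 7037 ± 45.3 CPM.

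Mir7b had the highest counted level of the 3 Mir7 genes. It had 2043 counts in replicate 1 and 2336 in replicate 2, or 408 CPM (391 to 426) and 499 CPM (479 to 520), with a mean of 454 ± 64.3 CPM and rank 131. Its nearest neighbours in level were Mir16-2 at 444 ± 48.3 CPM and Mir665 at 452 ± 34.3 CPM. The counts of Mir7-1 and Mir7-2 leave out shared miR-7a-5p reads, so whether those genes made less than Mir7b is not known. Both libraries placed Mir7b above the median of the detected genes, which was 139 CPM.

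Mir7-1 and Mir7-2 lay below that median. Mir7-1 had 408 counts in replicate 1 and 486 in replicate 2, or 81.5 CPM (73.8 to 89.8) and 104 CPM (94.8 to 114), with a mean of 92.7 ± 15.8 CPM and rank 199. Mir7-2 had 111 counts in replicate 1 and 72 in replicate 2, or 22.2 CPM (18.2 to 26.7) and 15.4 CPM (12.04 to 19.4), with a mean of 18.8 ± 4.80 CPM and rank 274. Both are the genes that lose miR-7a-5p reads to multiple mapping, so these values leave out part of their reads. The genes nearest in level were Mir138-1 at 91.6 ± 13.1 CPM and Mir770 at 98.1 ± 19.5 CPM for Mir7-1, and Mir1247 at 18.5 ± 7.15 CPM and Mir26a-1 at 18.5 ± 1.75 CPM for Mir7-2. Mir138-1, Mir26a-1 and Mir16-2 have mature strands known to be made at several loci, and their levels are uncertain for the same reason. Nearness here means a similar level in 2 libraries of 1 tissue and nothing about function.

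**Figure D1:**
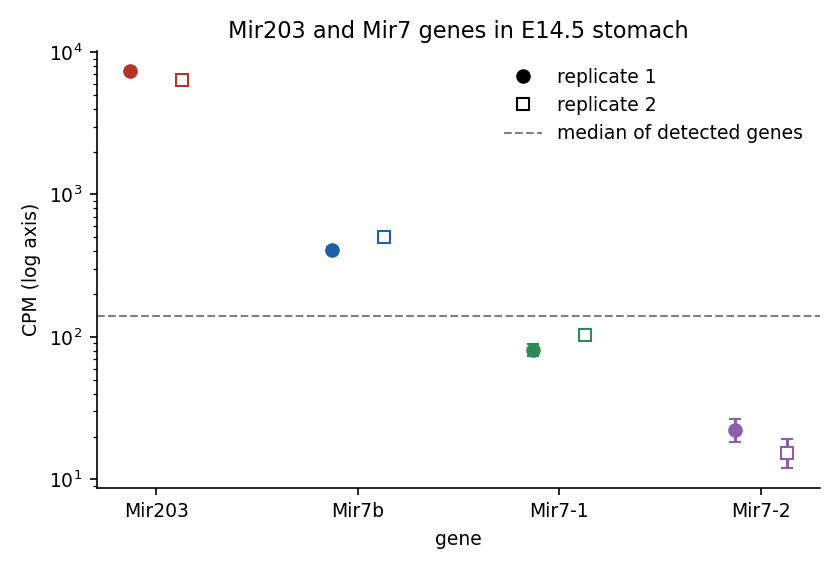
Levels of Mir203, Mir7b, Mir7-1 and Mir7-2 in CPM on a log axis, with filled circles for replicate 1, open squares for replicate 2, bars for 95% Poisson intervals of the counts and a dashed line for the median of the 361 detected genes (139 CPM). By counted reads the order of the 4 genes is the same in both libraries: Mir203 lies at 7329 and 6391 CPM, and Mir7-2 at 22.2 and 15.4 CPM. The points of Mir7-1 and Mir7-2 leave out shared miR-7a-5p reads.

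The order Mir203, Mir7b, Mir7-1, Mir7-2 was the same in both libraries, and no adjacent pair in it overlapped. Mir203 exceeded the sum of the 3 Mir7 genes 14.3-fold in replicate 1 and 10.3-fold in replicate 2, a log2 ratio of 3.60 ± 0.33 (SD, n = 2). That sum was 512 CPM in replicate 1 and 618 CPM in replicate 2, of which Mir7b made up 79.7% and 80.7%, Mir7-1 15.9% and 16.8%, and Mir7-2 4.33% and 2.49%. Mir7b exceeded Mir7-1 and Mir7-2 together 3.94-fold and 4.19-fold, a log2 ratio of 2.02 ± 0.06, and Mir7-1 exceeded Mir7-2 3.68-fold and 6.75-fold, a log2 ratio of 2.32 ± 0.62. Each ratio was larger than its spread between the libraries. These ratios carry no test, since a permutation or sign test over 2 libraries cannot pass a threshold of 0.05. The sum, its shares and the ratios that include Mir7-1 or Mir7-2, alone or in the sum, rest on counted reads alone. Shared miR-7a-5p reads are missing from those counts, so the counted sum is a lower limit. The values are not ratios of miR-7b to miR-7a or of miR-203 to miR-7.

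**Figure D2:**
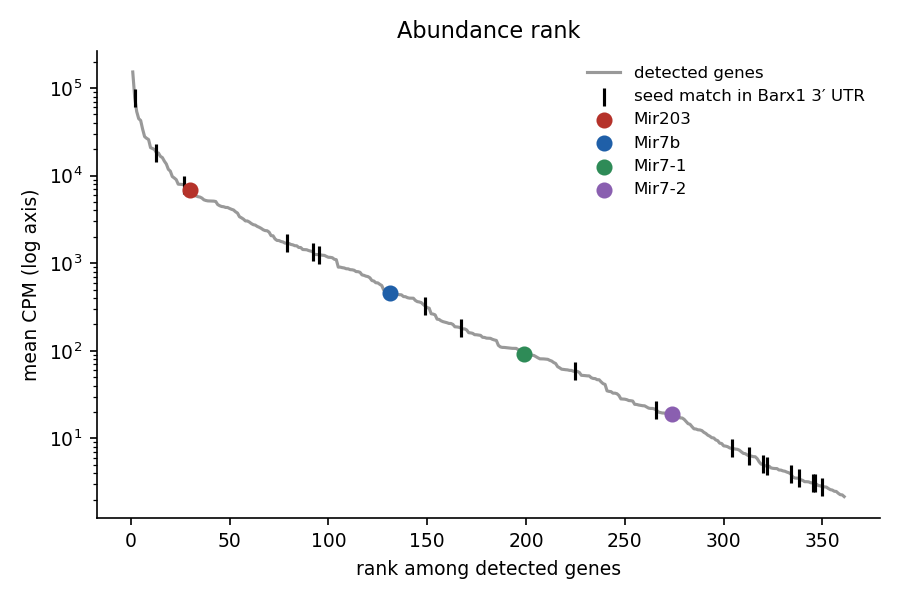
Mean CPM of the 361 detected genes on a log axis, in order of rank, with the 4 genes as coloured points and black ticks for the other detected genes with a seed match in the Barx1 3′ UTR. By counted reads Mir203 stands at rank 30, Mir7b at 131, Mir7-1 at 199 and Mir7-2 at 274.

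The marker miRNAs of the cell types known to hold these genes gave a scale for the levels. Mir205, which is known from stratified epithelium as Mir203 is, had 9300 CPM in replicate 1 and 10237 CPM in replicate 2. Mir203 was 0.788 times Mir205 in replicate 1 and 0.624 times in replicate 2, a log2 ratio of -0.51 ± 0.24, and the direction was the same in both libraries. Mir375, known from hormone-producing cells and the gastric lining, had 5552 CPM in replicate 1 and 4678 CPM in replicate 2. The counted reads of the summed Mir7 genes were 0.0922 times and 0.132 times that level, a log2 ratio of -3.18 ± 0.37. That sum leaves out shared miR-7a-5p reads, so these values are not ratios of miR-7 to miR-375. Of the neural list, 3 of 8 counted genes were detected. Mir137, at 1669 CPM in replicate 1 and 1832 CPM in replicate 2, made up most of the list's sum of 1785 and 1984 CPM, whereas the defining neural genes had few counted reads: Mir124a-1, Mir124a-2 and Mir9-2 had none, Mir124a-3 had 1 in replicate 1 and 0 in replicate 2, and Mir9-3 had 11 and 9. The mature strands miR-124 and miR-9 are made at several loci, so these low counts do not show that they were absent. These are whole-organ libraries, in which few cells with much of a miRNA and many cells with little of it cannot be told apart, so the levels do not say in which cells of the stomach Mir7 or Mir203 were made.

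The libraries were next compared with each other to see how far the levels of these genes varied between stomachs. Each detected gene was tested by an exact two-sided binomial test of its counts given both gene totals, with Benjamini-Hochberg adjustment over all 361. It compares these libraries, not conditions, and sets them against counting noise alone. By adjusted p under 0.05 all 4 genes differed, against a background of 42.1% of detected genes (152 of 361). All 4 also had an unadjusted p under 0.05. None reached in addition an absolute log2 ratio of 1, a pair of limits that 1.11% of detected genes (4 of 361) passed.

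The 4 genes did not move together. Mir203 and Mir7-2 were higher in replicate 1, and Mir7b and Mir7-1 were higher in replicate 2. For Mir203 the log2 ratio of replicate 1 over replicate 2 was 0.20 (95% interval 0.18 to 0.22, adjusted p = 3.69e-68, exact binomial). For Mir7b it was -0.29 (-0.38 to -0.20, adjusted p = 1.68e-10) and for Mir7-1 -0.35 (-0.54 to -0.16, adjusted p = 0.00107), both from the same exact test. Mir7-2, with the fewest counts, had 0.53 (0.09 to 0.98, adjusted p = 0.0429, exact binomial), and with the genes of at least 1 count in both libraries tested in place of 10 its adjusted p was 0.07.

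With division by the gene totals, each of these differences lay between the median and the 90th percentile of detected genes of similar level. These percentiles were not computed with TMM or DESeq2 size factors, so whether the placement holds with them is not known. Among the 104 detected genes of 1000 CPM or more, the median absolute log2 ratio was 0.11 and the 90th percentile 0.27, with Mir203 at 0.20 between them. In the 92 genes from 100 to 1000 CPM these values were 0.11 and 0.40, with Mir7b at an absolute 0.29. In the 51 genes from 30 to 100 CPM they were 0.18 and 0.39, with Mir7-1 at an absolute 0.35, and in the 48 genes from 10 to 30 CPM they were 0.30 and 0.78, with Mir7-2 at 0.53. The median log2 ratio of the 4 genes was -0.05, and that of all detected genes was -0.04.

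**Figure D3:**
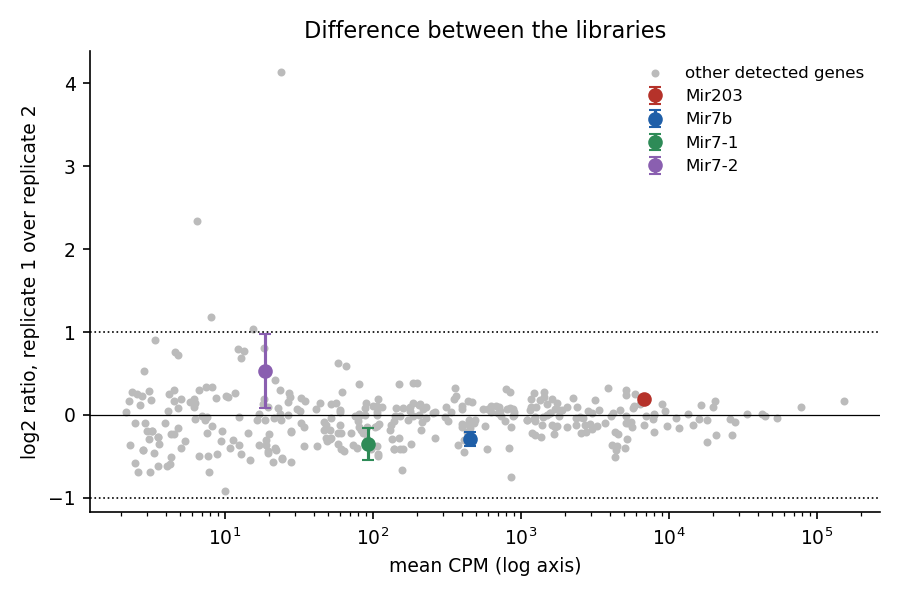
Log2 ratio of replicate 1 over replicate 2 against mean CPM on a log axis for the detected genes, with the 4 genes in colour, bars for their 95% intervals and dotted lines at a ratio of 1 and -1. Mir203 (0.20) and Mir7-2 (0.53) lie above 0, Mir7b (-0.29) and Mir7-1 (-0.35) below, and all 4 lie within the dotted lines.

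The Barx1 transcript was then searched for matches to the seeds. GENCODE M21 gives Barx1 1 transcript (ENSMUST00000021813.4, 1399 bases, plus strand of chromosome 13), whose 3′ UTR has 515 bases after the stop codon, 48665993 to 48666507. The search used the complement of seed bases 2 to 8, on the transcript strand alone. It found 1 match for miR-203-3p, the letters CATTTCA at bases 82 to 88 of the 3′ UTR, shown in capitals in 30 bases of it at chr13:48666062-48666091 (mm10, plus strand).
Barx1 3′ UTR around the miR-203-3p match: ttgctttctaatCATTTCAttactactttg

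The base after the match is T, so this is a 7mer-m8 match and not an 8mer, which has A there. The same letters occur in 16.1% of 21005 mouse 3′ UTRs (the longest of each protein-coding gene), and in 6.31% of the first 515 bases of the 14141 that are that long. For miR-7a-5p and miR-7b-5p the letters are GTCTTCC, which occur in 11.9% of those 3′ UTRs and in 4.96% of the windows of 515 bases. They did not occur in the Barx1 3′ UTR or elsewhere in its transcript, and neither did the shorter TCTTCC that pairs with bases 2 to 7. The 3p strands of the Mir7 genes and miR-203-5p had no match either, so of the 7 mature strands miR-203-3p alone had one. A match of letters is a description and not a binding site, and no match says only that these letters are not in this annotated transcript.

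Mir203 was then set beside all miRNAs whose seed had a match in that 3′ UTR. Of 916 counted genes with a mature strand in the RefSeq table, 66 had at least 1 strand with a 7mer-m8 or 8mer match, and 20 of these were detected, 30.3% against 35.5% (325) of all 916. The median level of the 20 was 39.7 CPM, against 139 CPM for the 325, but with matches of 6 bases or longer the 58 detected genes had a median of 219 CPM, so the direction depends on the match rule. Mir203 ranked 4 of the 20 by mean level. It ranked 8 of those 58, and it is not in the list of 8mer matches alone. Among the 20, those above it were Mir99a at 77959 ± 3697 CPM, Mir99b at 18253 ± 518 CPM and Mir744 at 7855 ± 173 CPM, and below it followed Mir337 at 1696 ± 64.2 CPM. The match of Mir99a and Mir99b is to their 3p strand, that of Mir744 to its 5p strand and that of Mir337 to its 3p strand. Gene counts do not say which strand the reads came from, and the miRNA known as miR-99 is the 5p strand. No other gene of the 66 had a match that overlapped the one of miR-203-3p.

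**Figure D4:**
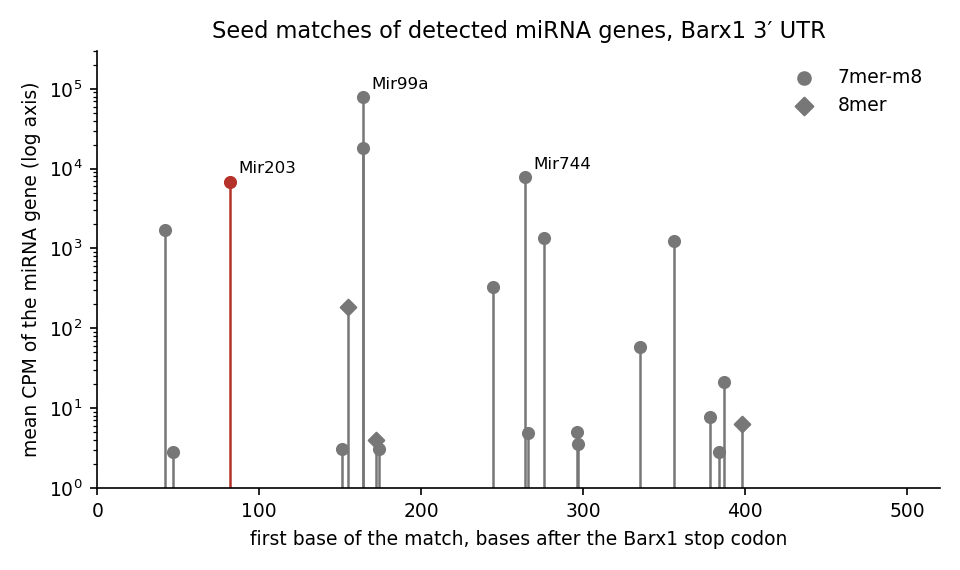
Seed matches of the 20 detected miRNA genes along the Barx1 3′ UTR, in bases after the stop codon, against the mean CPM of the gene on a log axis, with circles for 7mer-m8 and diamonds for 8mer matches. Mir203 is in red at base 82 with 6860 CPM, below Mir99a, Mir99b and Mir744, and no Mir7 gene has a match to show.

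On the strand opposite to their annotation, Mir7-1, Mir7-2 and Mir7b had 0 counts in both libraries, so that levels there of up to 0.599 CPM (replicate 1) and 0.641 CPM (replicate 2) remain possible, the worth of 3 counts with counting error alone. Mir203 had 34 such counts in replicate 1 and 33 in replicate 2, 0.0927% and 0.110% of its total, so that its level rests on its own strand.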

How the data were processed

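The deposited unit is raw counts per gene, as whole numbers, 1 table per library, made on mm10 with annotation M4 per the file text that the authors deposited with the tables. The sources used here name no aligner or counting program. Of 3 count columns, both strands were used; the own-strand and opposite-strand columns add up to them. Lines that name no gene were left out: in replicate 1 and replicate 2 these were unmapped reads (12.5% and 13.5% of all reads), multiply mapped reads (27.8% and 27.4%), reads outside genes (2.50% and 2.32%) and ambiguous reads (0%). Without molecular identifiers, intervals cover counting error alone.

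Symbols came from GENCODE M21 by identifier without version (1894 of 1973 matched, members included). The rule for named genes was the members, the 2 detected genes nearest each in level, the 5 most abundant with a Barx1 seed match, marker genes, genes within 10 kb and precursors sharing 18 nt. Members, lists and tests were chosen with earlier results of these data known. The binomial test was tested on simulated data with counting noise alone and 200 genes changed by more than the 4 genes here. That simulation does not cover the wider spread between the real libraries or differences as small as those of the 4 genes. With 1 group, edgeR's quasi-likelihood test has no contrast. The libraries differed beyond sampling noise (chi-square 75.8 per degree of freedom, 360 degrees of freedom) and were kept as 2 samples; p-values measure the difference between these libraries only. Tools were Python 3.11.15, scipy 1.17.1, edgeR 4.0.16 (TMM) and DESeq2 1.42.0 (size factors).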

Additional observations from a re-analysis of the deposited data

Results flagged for a closer look

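Reads on the strand opposite to Mir203 stood out. They are counted within the both-strand levels above, of which they are 0.0927% in replicate 1 and 0.110% in replicate 2, but no comparison used their column by itself. There were 34 counts in replicate 1 and 33 in replicate 2, above the 3 counts that a count of 0 allows, while the 3 Mir7 genes had 0. RefSeq lists mature strands miR-203b-3p and miR-203b-5p for that strand, under the symbol Gm51289 on chromosome 12. Its precursor is the reverse complement of Mir203 over 60 bases. Of the 361 detected genes, 15 had over 3 opposite-strand counts in both libraries. Which transcript these reads came from was not tested.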

How the results depend on the processing

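The levels follow the total they are divided by. With all reads as the total, the means were 52.7 CPM for Mir7-1, 10.7 for Mir7-2, 258 for Mir7b, 3907 for Mir203 and 322 for the 3 Mir7 genes together. With a total without the 5 most abundant genes they were 147, 29.99, 721, 10933 and 898 CPM. TMM factors, DESeq2 size factors and the own-strand column moved no level by more than the SD between the libraries. Both kinds of factor move the 2 libraries in opposite directions, so the mean could hardly move and this is no check of it. For the 3 Mir7 genes, with 0 opposite-strand counts, the own-strand column changed the total alone. With that column the ratios among the Mir7 genes and the ratio of their sum to Mir375 could not change. The log2 ratios of Mir203 to the Mir7 sum and to Mir205 could change only by the few opposite-strand reads of Mir203. Neither moved by more than its SD. A single library of 2 always lies within that SD, so leaving one out is no check of it. Ranks among all counted genes did depend on the strand column. With own-strand counts Mir7b went from 131 to 122, Mir7-1 from 199 to 189 and Mir7-2 from 275 to 264, while Mir203 stayed at 30. The ratios to Mir205 and Mir375 were added after seeing the data. The count of genes past both limits between the libraries was 7 with a minimum of 1 count in both and 1 with a minimum of 30, with no member among them under any of the 7 alternatives. By adjusted p alone the share of calls higher in replicate 1 was 41.4% (63 of 152), 56.0% (94 of 168) with TMM factors, 66.5% (115 of 173) with size factors and 55.4% (92 of 166) without the 5 most abundant genes. Mir7-2 missed the threshold with a minimum of 1 count (adjusted p = 0.07, exact binomial) and with no filter (0.0825). No member changed direction under the alternatives run; DESeq2 size factors moved Mir203 to 0.29, Mir7-2 to 0.62, Mir7b to -0.20 and Mir7-1 to -0.26 (log2 of replicate 1 over replicate 2). The Barx1 list held 14 genes (3 detected) with 8mer matches alone, 190 (58 detected, median 219 CPM) with 6mer matches or longer, and 33 detected with a minimum of 1 count. No paired analysis was possible because there is 1 group. Depth limits Mir7-2 most, at 72 counts in replicate 2.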
